A study of Homo sapiens with 6 samples.

Results

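The genes described here encode the matrix metalloproteinases (MMP), the membrane-bound ADAM proteases, the secreted ADAMTS proteases and the tissue inhibitors of metalloproteinases (TIMP) in a human podocyte line. Members were all gene names made of MMP, ADAM, ADAMTS or TIMP and a number, with counts summed where a name was listed at more than 1 place. This gave 66 of the 34644 gene names in the deposited tables, with 23 MMP, 20 ADAM, 19 ADAMTS and 4 TIMP genes. The libraries came from HPC, a cell line labelled human podocyte and wild type, grown in RPMI-1640 medium with fetal bovine serum. All cultures received high glucose and a lentivirus, either a negative control (NC, 3 libraries) or one overexpressing PRDM16 (3 libraries), and the titles give 24 h. PRDM16, a transcription factor with zinc fingers, is known for its role in brown fat. The labels name neither the promoter of the lentivirus nor the glucose concentration, and whether each library had a culture of its own is not said. The p-values thus speak to the spread among these libraries alone, and that spread may be technical. Cells in normal glucose are not analysed here.

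MMPs are zinc enzymes that are made as inactive precursors and cut collagens, laminins and other proteins outside the cell, with some members anchored in the plasma membrane. ADAM proteases shed the outer parts of membrane proteins such as growth factors and Notch receptors, and several ADAM proteins have lost the catalytic site. ADAMTS enzymes bind matrix and cut proteoglycans, procollagens or von Willebrand factor, and TIMPs block MMPs and some ADAM and ADAMTS enzymes. In the glomerulus, the podocyte both makes and remodels the basement membrane on which it sits, and these enzymes take part in that turnover.

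The libraries held 20147135 to 41280350 gene counts. A floor of 3 counts was taken for genes at 0, which is 0.0727 to 0.149 CPM (counts scaled to a common library size). PRDM16 had 0 counts in each NC library and 11, 18 and 24 counts in the PRDM16 libraries, in the direction of the labels. The edgeR adjusted p was 0.000132, and the exact two-sided permutation p was 0.1, the smallest that 3 against 3 can give. At 0.572, 0.647 and 0.577 CPM the transcript was scarce even in the PRDM16 libraries. Of the podocyte markers, NPHS1 had at most 3 counts in any library and WT1 at most 4, while PODXL was present at 53.7 ± 5.75 TPM (a level scaled by transcript length; SD, n = 6). The 12 parietal and tubule epithelium markers summed to 3416 to 3589 TPM with NC and 3496 to 3754 with PRDM16. KRT8 (1718 TPM), KRT18 (1234), CLDN1 (439) and PAX8 (164) led them, while LRP2 and UMOD had 0 counts. The 8 mesangial and fibroblast markers summed to 278 to 317 TPM with NC and 251.5 to 289 with PRDM16. COL1A1 was at 140 TPM and PDGFRA had at most 1 count. The 6 endothelial markers summed to 1.22 to 1.39 TPM with NC and 1.19 to 1.44 with PRDM16, with at most 2 counts of PECAM1. The 6 immune markers summed to 242 to 266 TPM with NC and 264 to 291 with PRDM16, nearly all of it the lysosomal CD68 (263 TPM), while PTPRC had at most 22 counts. The part of these markers in the results was not tested. NC library 2 stood apart from the others in base composition. Across 13859 genes its deviations ran against the GC content of the transcripts (Spearman's rho = -0.702), while the rho of the other NC libraries was 0.154 and -0.227 and that of the PRDM16 libraries lay between 0.293 and 0.496. Fold changes printed for members that move by over 1.5 times without this library are given both ways. In bulk RNA, fewer cells of a type and less RNA per cell cannot be told apart.

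Most of the summed TPM of the members lay in a few genes. Levels are given as the deposited TPM, which are per transcript length and can be compared between genes. Of the 66 members, 17 had a mean of at least 10 TPM over the 6 libraries, 6 lay between 1 and 10 TPM and 43 lay under 1 TPM. There were 10 members with 0 counts in every library and 19 with at most 3 counts in any library. Such low levels were not particular to the members. Of all 34644 gene names, 9380 had 0 counts in every library, a larger share than among the members. ADAM11, the highest of the 43 at 0.898 TPM, ranked 13652 among all names, so most names also lay under 1 TPM. The 10 highest members held 93.7% to 94.8% of the summed TPM of all members in each library. They were MMP14, TIMP2, ADAMTS1, ADAM15, TIMP1, MMP24, ADAM8, ADAM9, ADAMTS5 and ADAMTS12.

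**Figure D1:**
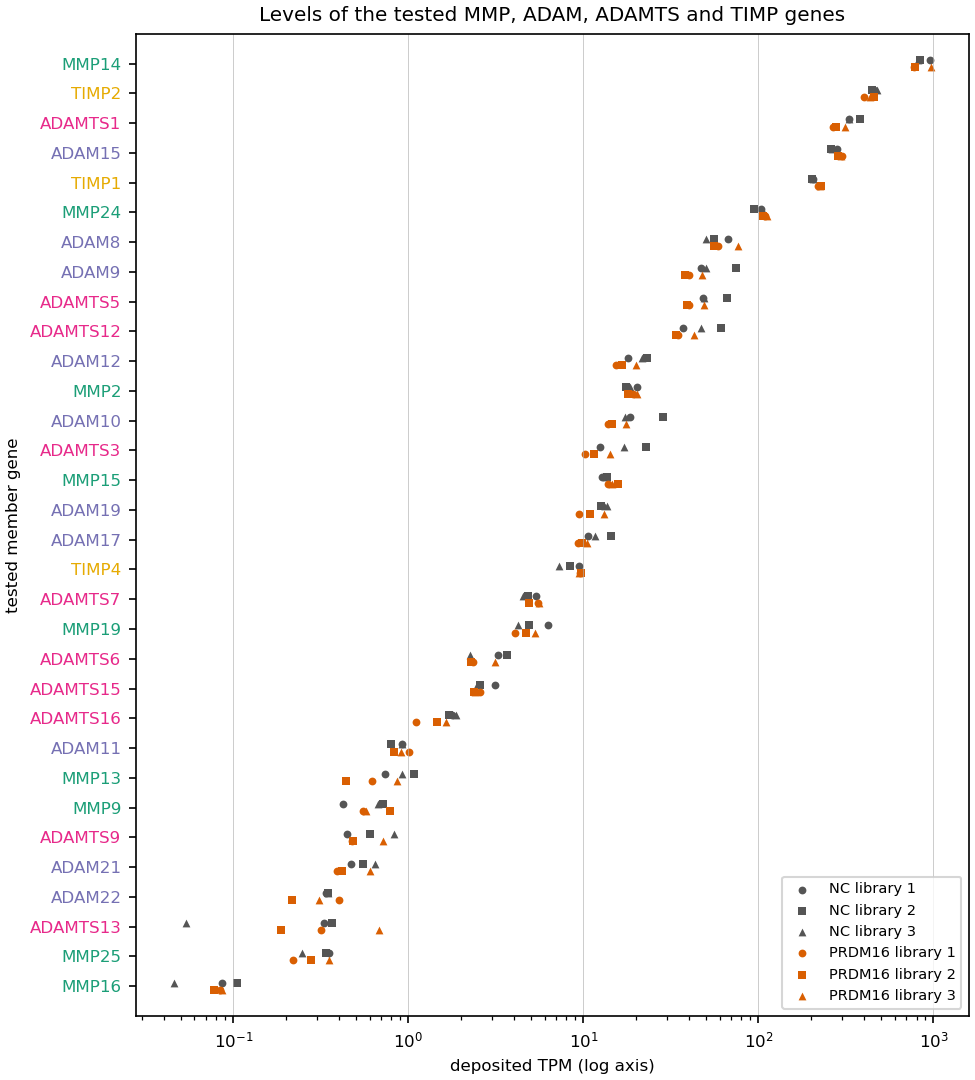
Deposited TPM (log axis) of the 32 tested member genes, 1 point per library, with NC in grey and PRDM16 in orange and the shape giving the library number; gene names are coloured by family (green MMP, violet ADAM, pink ADAMTS, yellow TIMP). MMP14 stands at the top, with a mean of 854 TPM, and MMP16 at the bottom, with 0.0808 TPM.

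Membrane-type MMPs, which act at the cell surface, carried the MMP signal. MMP14, the membrane collagenase that also activates MMP2, occupies positions 22836585 to 22847758 of chromosome 14 (plus strand, hg38). Its levels were 952, 835 and 817 TPM in the NC libraries and 770, 785 and 967 TPM in the PRDM16 libraries. The 2 groups overlapped, and the mean of 854 ± 84.6 TPM (SD, n = 6) ranked 149 among all 34644 genes. MMP14 alone took 81.2% to 84.5% of the counts of all MMP genes in a library. MMP24, another membrane-type MMP, followed with 104.9 ± 6.10 TPM. Of its exon length, 14.1% is shared with MMP24OS on the other strand, and the strand setting of the counting is not given, so the reads of the pair cannot be fully told apart. MMP15 was at 14.02 ± 0.997 TPM, while MMP25, MMP17 and MMP16 were under 0.3 TPM.

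The gelatinases, which cut denatured collagen and the type IV collagen of basement membranes, were unequal. MMP2 stood at 20.3, 17.5 and 18.4 TPM with NC and 19.2, 18.0 and 20.3 with PRDM16, with overlapping groups. MMP9 was far lower, at 0.621 ± 0.131 TPM (SD, n = 6) and 8 to 20 counts per library, and 18.3% of its exon length is shared with SLC12A5-AS1 on the other strand. Of the remaining MMP genes 1 exceeded 1 TPM, MMP19 at 4.92 ± 0.816 TPM.

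The MMP cluster on chromosome 11 was nearly silent. The 9 genes MMP7, MMP20, MMP27, MMP8, MMP10, MMP1, MMP3, MMP12 and MMP13 lie there together between positions 102520508 and 102955732 (hg38). They include the interstitial collagenases (MMP1, MMP8 and MMP13), the stromelysins MMP3 and MMP10 and the matrilysin MMP7. Together they had 30, 41 and 32 counts in the NC libraries and 26, 32 and 57 in the PRDM16 libraries, against 22149 to 53627 counts of MMP14 alone. MMP3, MMP12 and MMP27 had 0 counts in every library. MMP1 had 0 counts in each NC library and 1, 1 and 2 in the PRDM16 libraries, which is under the floor in each. MMP13 (0.774 TPM) and MMP7 (0.8975 TPM) held most of the counts of the cluster, and MMP13 alone passed the filter on low counts.

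Promoter sequences from RefSeq (GRCh38.p14) were matched for 39 of the 66 members. Among those matched, the abundant genes and the cluster differ in median GC content. The 170 bases before the annotated start are shown for MMP14 and ADAM15 as highly expressed members, for MMP7 and MMP10 as members of the cluster, and for TIMP3, which had 0 counts in every library. Capitals mark matches on either strand, within 250 bases, to the AP-1 motif TGAGTCA, the TATA box TATAAA, the CRE motif TGACGTCA or the Sp1 motif GGGGCGGGG. A match is a description of the letters and not evidence of binding.
MMP14 (chr14:22836415-22836584, plus strand): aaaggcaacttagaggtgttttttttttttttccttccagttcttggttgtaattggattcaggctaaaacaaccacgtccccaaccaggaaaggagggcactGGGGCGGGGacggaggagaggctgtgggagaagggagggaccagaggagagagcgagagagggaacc
ADAM15 (chr1:155051146-155051315, plus strand): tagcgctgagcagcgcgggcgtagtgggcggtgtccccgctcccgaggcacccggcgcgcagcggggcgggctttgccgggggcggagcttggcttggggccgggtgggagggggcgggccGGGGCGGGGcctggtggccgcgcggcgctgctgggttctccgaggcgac
TIMP3 (chr22:32801535-32801704, plus strand): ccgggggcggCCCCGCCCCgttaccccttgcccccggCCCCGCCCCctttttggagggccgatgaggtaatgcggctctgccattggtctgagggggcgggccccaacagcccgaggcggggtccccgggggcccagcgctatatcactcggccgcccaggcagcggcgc
MMP7 (chr11:102530748-102530917, minus strand): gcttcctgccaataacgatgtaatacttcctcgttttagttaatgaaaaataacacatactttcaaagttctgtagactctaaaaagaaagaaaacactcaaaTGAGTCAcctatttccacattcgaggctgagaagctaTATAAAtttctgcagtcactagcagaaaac
MMP10 (chr11:102780629-102780798, minus strand): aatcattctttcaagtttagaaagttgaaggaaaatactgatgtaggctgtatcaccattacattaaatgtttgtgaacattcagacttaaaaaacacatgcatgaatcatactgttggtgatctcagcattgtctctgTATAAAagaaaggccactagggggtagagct

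Of the 5 cluster promoters in the table, 4 held TATAAA within 250 bases, against 10.7% of all 35116 promoters, and their median GC content was 34.4%. None of the 12 matched promoters of members at 10 TPM or more held TATAAA, and their median GC content was 74.2%. That of MMP14, the most abundant member, was the lowest of them at 56.8%, under the median of all promoters (58.0%). The Sp1 motif was found in 8 of those 12, against 15.1% of all promoters. The TIMP3 promoter was likewise rich in GC (72.4% over the 250 bases) and held 2 Sp1 motifs, although the gene had no counts. It was not alone in this. Across the 22 matched promoters of members not tested, the median GC content was 62.8%, against 58.0% for all promoters, and 27.3% held the Sp1 motif. TGAGTCA was found in 1 of 40 matched member promoters (2.5%), that of MMP7, and TGACGTCA in 0. The shares of all promoters were 4.2% and 1.65%, so neither motif stood out among those matched. MMP1, MMP3, MMP12 and MMP13 of the cluster and MMP9 had no matched promoter, so these counts say nothing of them. The same holds for TIMP2, ADAMTS1, ADAM9, ADAMTS5 and MMP2, which were at 10 TPM or more.

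Among the ADAM genes, 7 of 20 reached 10 TPM, each of them with a catalytic site. ADAM15, an adhesion-linked sheddase on chromosome 1 at 155051316 to 155062775, was the highest at 281 ± 16.9 TPM (SD, n = 6). ADAM8, known from immune cells and invasive tumours, had 60.6 ± 9.50 TPM and ADAM9 had 49.4 ± 13.0 TPM. The main sheddases were lower. ADAM10, which sheds Notch receptors and cadherins, was at 18.4 ± 5.32 TPM, and ADAM17, which releases TNF and ligands of the EGF receptor, was at 11.05 ± 1.79 TPM. For ADAM17, 24.1% of the exon length is shared with IAH1 on the other strand, which had 218 to 379 counts per library against 486 to 1046 for ADAM17. ADAM12 (19.04 ± 2.95 TPM) and ADAM19 (12.1 ± 1.59 TPM) completed the group. The other 13 were under 1 TPM, and ADAM2, ADAM7, ADAM18 and ADAM30, which are known from the testis or epididymis, had 0 counts in every library.

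The ADAMTS signal lay mostly in proteoglycan-cutting enzymes. ADAMTS1, which cuts versican and aggrecan, had 329, 382 and 329 TPM in the NC libraries and 267, 277 and 314 TPM in the PRDM16 libraries, with every PRDM16 library below every NC library. ADAMTS5, the main aggrecanase of cartilage, stood at 48.4 ± 9.61 TPM and ADAMTS12, a cutter of cartilage oligomeric matrix protein, at 42.8 ± 10.3 TPM (SD, n = 6). ADAMTS3, which trims procollagen and activates VEGF-C, was at 14.7 ± 4.65 TPM, and the other procollagen enzymes ADAMTS2 and ADAMTS14 were under 0.2 TPM. ADAMTS4, the other main aggrecanase, was at 0.0338 TPM, with 2 to 8 counts per library. Summed over the family, the ADAMTS genes had 443 to 546 TPM with NC and 365 to 434 TPM with PRDM16, so that the groups did not overlap, and the highest sum was that of NC library 2. Such a sum is led by ADAMTS1 and was not tested.

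Of the inhibitors, TIMP2 and TIMP1 were abundant and TIMP3 was not detected. TIMP2, which also bridges MMP14 to the MMP2 precursor, had 460, 447 and 478 TPM with NC and 401, 458 and 435 with PRDM16, with overlapping groups. TIMP1, on the X chromosome within the span of SYN1, had 206, 203 and 206 TPM with NC and 220, 226 and 225 with PRDM16, so the groups were separate. TIMP4 stood at 8.97 ± 0.958 TPM (SD, n = 6). TIMP3, the matrix-bound inhibitor that also blocks ADAM10 and ADAM17, had 0 counts in each of the 6 libraries, which allows up to 0.0727 to 0.149 CPM. TIMP3 lies within the span of SYN3 on chromosome 22 and shares no exon with another listed gene. The ratio of summed MMP to summed TIMP TPM was 1.63, 1.47 and 1.39 with NC and 1.46, 1.35 and 1.68 with PRDM16, with overlapping groups.

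The comparison asks which of these transcripts differed between the PRDM16 and the NC lentivirus in high glucose, where the PRDM16 transcript itself was scarce. No member passed. Of the 66 members 32 passed the filter on low counts, and 0 of 32 had an adjusted p under 0.05 in edgeR, where 0.12% of the 15053 genes tested did (14 higher, or 0.093%, and 4 lower, or 0.0266%). The count of members was also 0 in DESeq2, in limma-voom and in all other alternatives. Adjusted p-values of the members ran from 0.265 to 0.995. The median log2 fold change of the 32 was 0.0044, against -0.021 over all genes, and 16 were positive, against 47.3% over all genes.

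At an unadjusted p under 0.05 in edgeR there were 8 of the 32 members (25.0%), against 16.9% of all genes. Of these, 5 were higher (15.6%, against 9.8%) and 3 lower (9.38%, against 7.08%) with PRDM16. The groups did not overlap in 8 members (25.0%), 6 higher and 2 lower, against 21.1% of all genes (12.4% higher and 8.7% lower). These shares lie near those of all genes. Values below are in CPM scaled by the TMM factors, which compare 1 gene between libraries.

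The 5 members with higher values were ADAM15, TIMP1, ADAM8, MMP15 and MMP24. ADAM15 had 336, 289 and 324 CPM with NC and 411, 378 and 361 with PRDM16, and the groups did not overlap (log2 fold change 0.28 ± 0.12 SE, edgeR adjusted p = 0.271). TIMP1 had 134, 122 and 139 CPM with NC and 163, 163 and 149 with PRDM16, again without overlap (0.27 ± 0.115, edgeR adjusted p = 0.271). MMP15, a membrane-type MMP, had 18.3, 18.2 and 20.1 CPM with NC and 22.8, 24.9 and 21.3 with PRDM16, also without overlap (0.29 ± 0.13). In these 3 genes the gap between the groups was smaller than the range within either group. MMP24 had 168, 142 and 175 CPM with NC and 203, 192 and 185 with PRDM16, without overlap (0.26 ± 0.12), and MMP24OS on the other strand had a log2 fold change of 0.33. ADAM8 had 88.8, 69.3 and 69.6 CPM with NC and 90.2, 82.5 and 104.6 with PRDM16, where PRDM16 library 2 lay below NC library 1 (0.28 ± 0.12).

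The 3 members with lower values were ADAM10, ADAM9 and ADAMTS3. ADAM10, on chromosome 15 at 58588809 to 58749707, had 73.4, 106 and 71.9 CPM with NC and 63.5, 64.2 and 71.9 with PRDM16 (log2 fold change -0.33 ± 0.13 SE, edgeR adjusted p = 0.265). The highest PRDM16 library (71.91 CPM) and the lowest NC library (71.94 CPM) all but met. NC library 2 was the high value, and without it the log2 fold change of ADAM10 was -0.12. ADAM9 had 155, 229 and 172 CPM with NC and 152, 140 and 161 with PRDM16, with overlapping groups (-0.30, and -0.11 without NC library 2). ADAMTS3 had 30.9, 52.6 and 44.0 CPM with NC and 28.8, 31.5 and 35.9 with PRDM16, also overlapping (-0.41, and -0.21 without NC library 2). All 3 genes thus had their highest value in the library that stood apart in base composition.

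**Figure D2:**
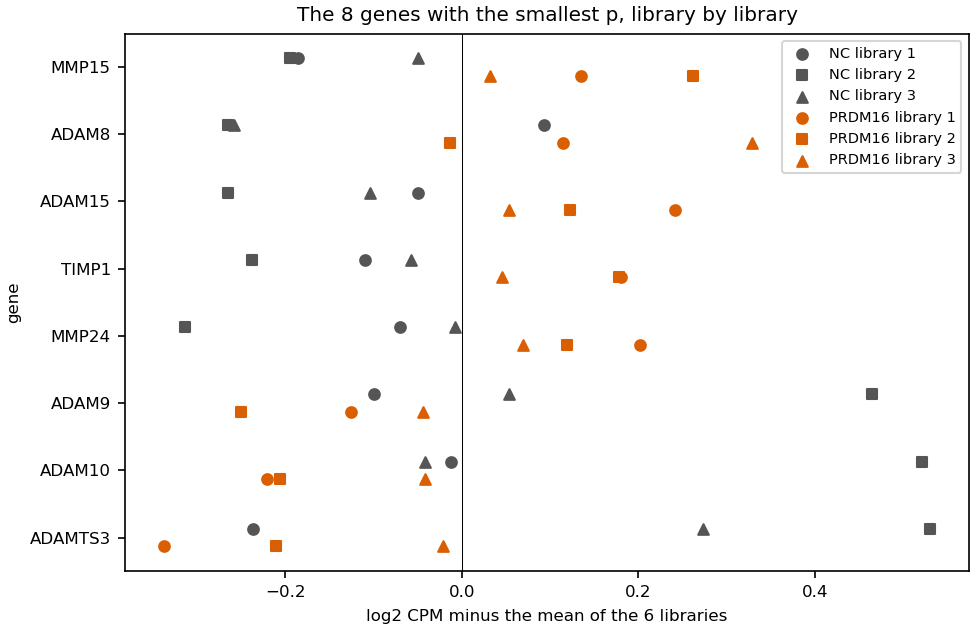
The 8 members with the smallest p, as log2 CPM minus the mean of the 6 libraries, with NC in grey, PRDM16 in orange and the shape giving the library number. NC library 2 (grey square) is the highest point in ADAM9, ADAM10 and ADAMTS3 and the lowest in the 5 other genes.

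The 3 members with the highest TPM, MMP14, TIMP2 and ADAMTS1, had small estimates, and the other named members did not pass either. For MMP14 the means were 1120 ± 113 CPM (NC) and 1192 ± 83.8 CPM (PRDM16; SD, n = 3). Its log2 fold change was 0.090, with a 95% interval of -0.17 to 0.35, and 0.032 without NC library 2. TIMP2 had 589 ± 52.0 and 606 ± 42.6 CPM (0.041, interval -0.21 to 0.29, and -0.015 without NC library 2). ADAMTS1 had 624 ± 24.0 and 569 ± 15.3 CPM, with every PRDM16 library below every NC library (-0.13, interval -0.38 to 0.11). MMP2 was at 26.8 ± 2.97 and 30.2 ± 1.46 CPM (0.17, and 0.093 without NC library 2). ADAM17 was at 28.3 ± 3.27 and 25.4 ± 0.336 CPM (-0.16, and -0.064 without it). MMP9 was at 0.491 ± 0.124 and 0.573 ± 0.128 CPM (0.20, interval -0.54 to 0.95), and went to 0.32 without NC library 2 and to 0.0034 and 0.0014 without NC library 1 and PRDM16 library 2. ADAMTS5 had -0.21 (-0.088 without NC library 2), ADAMTS12 -0.19 and TIMP4 0.33. The intervals leave room for changes in either direction in MMP14, TIMP2, ADAMTS1 and MMP9, with the widest interval of these in MMP9.

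By family, 8 of the 9 tested MMP genes had positive log2 fold changes (median 0.17) and so did all 3 tested TIMP genes (0.27), while 7 of 10 ADAM genes (-0.073) and 8 of 10 ADAMTS genes (-0.11) had negative ones. These medians moved with single libraries. Without NC library 2 that of the MMP genes was 0.093, and that of the ADAM genes was -0.0061 without NC library 3 and -0.16 without PRDM16 library 3. The families also differ in base composition and length. The median GC content of the tested transcripts was 59.3% for the MMP genes and 54.1% for the TIMP genes, against 48.7% for ADAM and 49.1% for ADAMTS, and the median length was 4062 and 1841 bases against 6582.5 and 6800.

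Within the members the difference between the lentiviruses ran along GC content. Of the 19 tested members with a GC content above the median of all tested genes, 15 had a positive log2 fold change (median 0.19), and of the 13 below it 1 did (median -0.16). Over all genes the share of positive values was 74.9% above that median and 20.1% below it. The 5 members with higher values at an unadjusted p under 0.05 had 58.1% to 65.5% GC, and the 3 with lower values 38.7% to 43.5%. Spearman's rho of the log2 fold change with GC content was 0.771 across the 32 members, 0.600 without NC library 2, and 0.649 across all genes with a value. These points share the same 6 libraries, and no p is given.

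**Figure D3:**
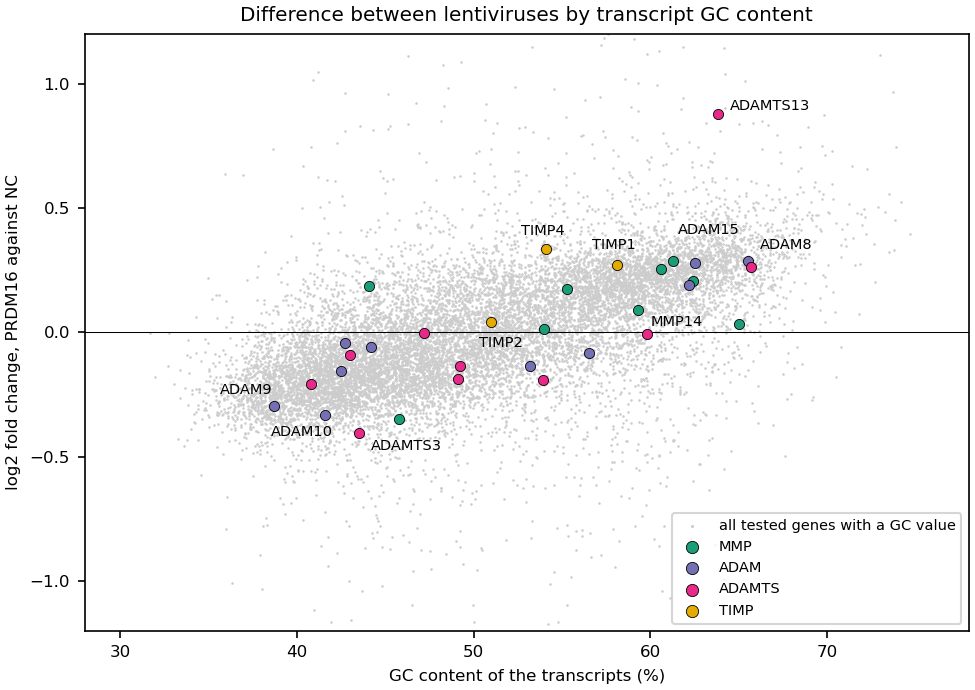
Log2 fold change, PRDM16 against NC, by the GC content of the transcripts (%), for the 32 tested members (coloured by family) and all tested genes with a GC value (grey; 75 genes beyond 1.2 in size are not drawn). Members poor in GC such as ADAM9, ADAM10 and ADAMTS3 lie below 0 and members rich in GC such as ADAM15 and ADAM8 above 0, along the cloud of all genes.

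With the trend of each library with transcript length and GC content removed, rho across the members was 0.054. That fall follows from the removal itself, which takes out what varies with GC content, so it tests nothing. In that edgeR fit 0 of 32 members had an unadjusted p under 0.05, against 6.6% of the 13859 genes. ADAMTS3 came nearest, with an edgeR unadjusted p-value of 0.0999 and a log2 fold change of -0.22. ADAM15 went from 0.28 to 0.058, TIMP1 from 0.27 to 0.069, ADAM8 from 0.28 to 0.033, MMP15 from 0.29 to 0.10 and MMP24 from 0.26 to 0.10. On the lower side ADAM10 went from -0.33 to -0.081 and ADAM9 from -0.30 to -0.029. The family medians were -0.044 for MMP, 0.016 for ADAM, -0.018 for ADAMTS and 0.069 for TIMP, so that each was small. With the replicate block as well, those of MMP and ADAM were -0.034 and -0.0056. Since the trend also separates the groups, a real difference that follows GC content and a technical one cannot be told apart here.

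**Figure D4:**
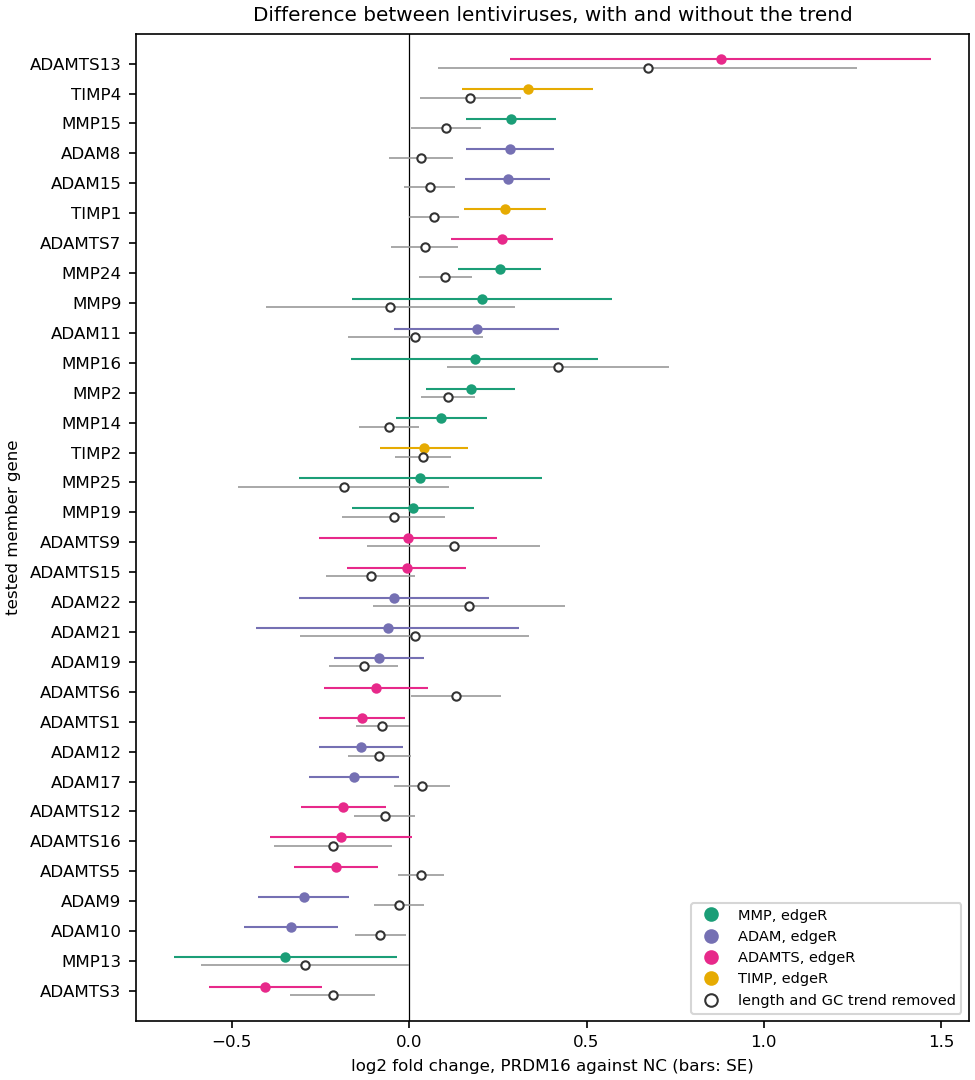
Log2 fold change, PRDM16 against NC, of the 32 tested members in edgeR (filled, coloured by family) and with the length and GC trend removed (open), with bars of 1 SE. The filled points spread from -0.41 for ADAMTS3 to 0.88 for ADAMTS13, and most open points lie nearer to 0.

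Genes that act with these proteases were described from lists of partners, inhibitors, substrates and regulators. Of 11 tested sheddase partners and convertases, 0 passed in edgeR and 3 had an unadjusted p under 0.05, where 16.9% of all genes did. All 11 had positive values (median 0.23, and 0.086 with the trend removed), against 47.3% of all genes and 74.9% of genes with GC above the median. Their own median GC content was 58.5%. Groups did not overlap in 8 of them, all higher, against 12.4% of all genes. RHBDF1, an iRhom partner of ADAM17, had 64.6, 57.5 and 61.6 CPM with NC and 76.0, 74.8 and 73.45 with PRDM16. Its log2 fold change was 0.29 ± 0.11 SE, and 0.054 with the trend removed. FRMD8, which stabilises the iRhom and ADAM17 complex, had 204, 196 and 209.6 CPM with NC and 254.5, 237 and 235 with PRDM16 (0.25 ± 0.115, and -0.024 with the trend removed). TSPAN10, a tetraspanin that escorts ADAM10, was at 11.5 ± 2.25 and 15.7 ± 1.24 CPM (SD, n = 3). Its log2 fold change was 0.44 ± 0.15 SE, and 0.12 with the trend removed.

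Of the 20 regulators of MMP genes, 1 passed, where 0.12% of all genes did, and 4 had an unadjusted p under 0.05, where 16.9% did. JUND, a subunit of the AP-1 factor, had 115, 87.8 and 102 CPM with NC and 163, 149 and 135 with PRDM16, without overlap (log2 fold change 0.56 ± 0.12 SE, edgeR adjusted p = 0.0447). Its transcripts hold 69.7% GC, the call was lost in 9 of 14 alternatives (adjusted p 0.00106 to 0.878 over the 14), and the log2 fold change was 0.16 with the trend removed. The median of that list was 0.0040. TGFB1 (0.27, and 0.11 with the trend removed) and RELA, a subunit of NF-kappaB (0.27, and 0.038 with the trend removed), did not pass.

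The other lists held no gene that passed in edgeR. Among 11 tested inhibitors and clearance receptors the median was 0.065. The cysteine protease inhibitor CST3 was at 256 ± 32.9 (NC) and 332 ± 29.5 CPM (PRDM16, SD, n = 3). BSG, the inducer of MMPs also known as EMMPRIN, was at 1420 ± 177 and 1697 ± 115. PCOLCE, an enhancer of procollagen cleavage, was at 3.49 ± 0.115 and 4.47 ± 0.389. Their log2 fold changes were 0.38, 0.26 and 0.35, and 0.14, 0.020 and 0.056 with the trend removed. Among 12 related metalloproteases and ADAMTS-like proteins the median was 0.026. BMP1, the procollagen C-proteinase, was at 157 ± 15.7 and 186 ± 10.7 CPM. ADAMTSL5 was at 21.9 ± 3.07 and 26.9 ± 1.73, and ADAMTSL4 at 7.996 ± 0.262 and 9.75 ± 0.267. The log2 fold changes of these genes were 0.25, 0.30 and 0.29, and 0.073, -0.021 and 0.11 with the trend removed. Among 26 shed membrane proteins the median was -0.031. The stress ligand MICA (0.24), the growth factor receptor MET (-0.25, and -0.082 without NC library 2) and the proteoglycan SDC1 (0.23) had the smallest p. With the trend removed they were at 0.11, -0.068 and 0.069. Among 14 matrix substrates the median was -0.057. The proteoglycan VCAN, a substrate of ADAMTS1, had 312, 520 and 358 CPM with NC and 314, 274 and 341 with PRDM16. NC library 2 was again the high value (log2 fold change -0.36, and -0.11 without it). COL4A1, a chain of type IV collagen, had a log2 fold change of -0.25 (-0.13 with the trend removed). That of FBN1 was -0.17 (-0.11 without NC library 2).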

How the data were processed

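Per the labels' protocols, mRNA from Trizol extracts was captured on oligo(dT) beads, fragmented and copied from random hexamers. For each library the authors deposited raw read counts, TPM and FPKM per gene listing, per the file headers. Per the submitters' processing notes the genome build is hg38; which aligner, counter, strand setting and annotation were used is not given in the sources used here. Lines of 7 broken genes were rejoined, after which the counts matched the totals implied by the deposited FPKM. Listings were summed by name (2008 names, 9 members). The 15053 names left by edgeR's default filter (minimum count 10, total 15) entered edgeR's (4.0.16; R 4.3.3) quasi-likelihood test (options robust, TMM, common biological coefficient of variation 0.139), with Benjamini-Hochberg adjusted p under 0.05 as the threshold. SEs came from the fold change and F statistic, and 95% intervals from the SE. GC content is the median over GENCODE transcripts (92.1% of tested genes, all tested members). For the trend, each library's log2 CPM deviation was regressed on natural splines of GC content and of log2 length, with 5 degrees of freedom for either, and the fit entered as an offset. Alternatives were DESeq2 1.42.0, limma 3.58.1 voom, DESeq2 size factors, no filter, separate listings, a replicate block and leaving out each library. The test was checked on simulated data, where the share of false calls was above the 0.05 threshold, so single calls over all genes are uncertain. Intervals and floors cover counting or fitting error only. Libraries of a group differed beyond sampling noise (chi-square per degree of freedom 11.5 to 35.0), so each counted as 1 sample.

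Members and lists were chosen with earlier results of these data known. Named members were the 8 with the smallest p, the 10 with the highest TPM, the 8 with the largest fold change at a mean of at least 1 CPM, and TIMP1 to TIMP4, MMP2, MMP9, MMP14, ADAM10 and ADAM17, with others named for their level or silence after their values were seen. In the other lists the 3 genes with the smallest p were named, except for the cell type markers. Those were named for their level or silence after their values were seen. Coordinates are those of the deposited tables.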

Additional observations from a re-analysis of the deposited data

How the results depend on the processing

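No member passed in any alternative; the smallest adjusted p of a member was 0.0625, for ADAMTS3 without NC library 1. The number of all genes that passed, 18, was 11 with DESeq2 size factors, 42 with DESeq2, 4 with limma-voom, 114 with no filter on low counts, 10 with each listing on its own, 5 with the length and GC trend removed and 5 with the replicate block and the trend removed. Leaving out single libraries gave 13 to 148 (37 without NC library 1, 148 without NC library 3, and 29, 53 and 126 without PRDM16 libraries 1, 2 and 3). The median log2 fold change of the members, 0.0044, was -0.088 with DESeq2 and -0.066 with no filter, where low genes also entered, and -0.036 to 0.059 without single libraries. Members at an unadjusted p under 0.05, 5 higher and 3 lower, were 6 and 6 without NC library 1, 3 and 0 without NC library 2, 1 and 3 without PRDM16 library 1, and 2 and 2 without PRDM16 library 2. Directions that turned belonged to members that did not pass. With the trend removed MMP14 was at -0.056, MMP9 at -0.053, ADAMTS5 at 0.033 and ADAM17 at 0.035, and with the replicate block as well they were at -0.059, -0.065, 0.034 and 0.035. TIMP2 was at -0.015 without NC library 2 and ranged from -0.020 (without PRDM16 library 2) to 0.106 over the libraries left out. The other tested members named by the rule on p, level, change or fixed choice kept their direction in all 14 alternatives; members outside that rule were not followed through them. Beyond the trend, the cause of these shifts was not tested. Same-numbered libraries did not deviate together (correlations 0.116, -0.12 and -0.145), so the numbers gave no pairing; with the replicate block 22 genes passed, 0 of them members. For PRDM16, DESeq2 gave no adjusted p, and edgeR's was 0.196 with the replicate block and the trend removed. With FPKM in place of TPM the 10 highest members were the same 10. With a pseudocount of 0.5 CPM in place of 0.1 the difference of PRDM16 was 1.12 in place of 2.77 on the log2 scale. At the depth of these libraries 34 members could not be tested.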

Other observations

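ADAMTS13, the protease that cuts von Willebrand factor, had the largest positive log2 fold change among the tested members (0.88 ± 0.59 SE, edgeR adjusted p = 0.432), and it rests on few counts. It is listed on chromosome 9 and again on an alternate scaffold. The scaffold listing had 13, 17 and 2 counts with NC and 12, 10 and 39 with PRDM16, and the chromosome listing had 0 counts in 5 libraries and 14 in PRDM16 library 3. REXO4, a neighbour on the other strand that shares 1.0% of the exon length of the chromosome listing, had 39, 42 and 40 counts at its own scaffold listing with NC and 25, 58 and 556 with PRDM16, so that both genes were highest in PRDM16 library 3. Whether these counts are linked was not tested, and the sources used here do not say where the counter put reads that fit 2 listings.

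ADAMTS12, with counts at a scaffold listing as well, had 108 of them in NC library 2 against 23 to 63 in the other 5 libraries, while its chromosome listing held 2142 to 5113 counts. MMP11, a stromelysin that is cut into its active form inside the cell, had its counts at the scaffold listing only, with 0, 3 and 2 with NC and 6, 4 and 8 with PRDM16, too few to test.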
